A study of Mus musculus with 20 samples.

Results

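The RNA levels of 10 circadian clock genes were followed in the intervertebral disc of old mice: the activator Arntl (the gene for BMAL1), the period genes Per1, Per2 and Per3, the cryptochrome genes Cry1 and Cry2, the REV-ERB genes Nr1d1 and Nr1d2, and the output factors Dbp and Tef. They were taken by symbol from the 51789 genes of the deposited table, and all 10 were among the 16383 genes high enough to be tested. Both parts of the disc were sampled: nucleus pulposus (NP) is its gel-like centre, and the outer layered ring is annulus fibrosus (AF). Per the protocols both were dissected as tissue and stabilised at once, although a label calls the samples primary cells. All mice were BL6 and 24 months old at death. From 18 months of age, for 6 months, they received intraperitoneal injections each week of DMSO (vehicle) or of MDL-800 in the same amount of DMSO, so both arms carried the solvent; the labels give no dose. MDL-800 is a small molecule described as an activator of the deacylase SIRT6, which the series title names. Each tissue and arm had 5 libraries, 20 in all, which are called by the number in their sample title. The hour of death is not given in the sources used here, so no library was placed on the daily cycle.

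The mammalian clock is a feedback loop of transcription. BMAL1 pairs with CLOCK on E-box sequences and drives the period, cryptochrome, REV-ERB and PAR bZIP genes (Dbp, Tef and Hlf). The period and cryptochrome proteins then repress BMAL1 and CLOCK, while the REV-ERB proteins repress Arntl itself and ROR proteins activate it. Arntl RNA therefore peaks at about the opposite time of day to Dbp and Nr1d1 in tissues with a running clock. Disc cells are known to hold such a clock, and discs degenerate in mice whose disc cells lack BMAL1.

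The sites through which these factors act are short, and 5 members were chosen to show them. As described further on, these 5 were called higher in NP than in AF under MDL-800. Under vehicle, Per3 and Nr1d1 were not called. Cry2, also called under MDL-800, and Nr1d2, called under vehicle, are not printed. Sequences are from RefSeq on GRCm38.p6, which held a window around the start of 9 of the 10 genes (all but Per2). Each printed run is the 250 bases before a RefSeq transcript start, read 5′ to 3′ on the gene's strand. Capitals mark an exact E-box (CACGTG) in Per1 and Tef. In Nr1d1 they mark the E-box variant CACGTT, which on the printed strand reads AACGTG. In Per3 they mark the D-box, the site of the PAR bZIP factors, searched as TTATGTAA or as TTACGTAA.
Per1, chr11:69098699-69098948, plus strand: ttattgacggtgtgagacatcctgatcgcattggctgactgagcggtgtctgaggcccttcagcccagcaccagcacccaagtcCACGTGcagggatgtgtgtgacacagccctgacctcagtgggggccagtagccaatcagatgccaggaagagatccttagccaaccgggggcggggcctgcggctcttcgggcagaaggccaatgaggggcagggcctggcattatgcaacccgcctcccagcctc
Tef, first start, chr15:81802423-81802672, plus strand: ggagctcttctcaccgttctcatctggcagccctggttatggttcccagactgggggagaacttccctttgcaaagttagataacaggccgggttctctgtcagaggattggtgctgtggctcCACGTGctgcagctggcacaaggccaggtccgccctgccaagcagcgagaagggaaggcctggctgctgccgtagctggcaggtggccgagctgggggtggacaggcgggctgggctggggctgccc
Tef, second start, chr15:81811164-81811413, plus strand: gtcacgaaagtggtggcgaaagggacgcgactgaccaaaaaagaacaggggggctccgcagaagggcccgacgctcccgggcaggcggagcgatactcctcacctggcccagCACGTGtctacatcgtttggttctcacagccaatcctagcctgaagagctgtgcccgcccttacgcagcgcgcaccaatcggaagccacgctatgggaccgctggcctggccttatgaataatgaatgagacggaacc
Per3, chr4:151044666-151044915, minus strand: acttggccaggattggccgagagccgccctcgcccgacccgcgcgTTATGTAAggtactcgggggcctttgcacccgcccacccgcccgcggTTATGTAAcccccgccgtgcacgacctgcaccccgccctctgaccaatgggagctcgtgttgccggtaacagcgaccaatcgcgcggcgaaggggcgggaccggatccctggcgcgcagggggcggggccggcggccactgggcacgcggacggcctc
Nr1d1, chr11:98775378-98775627, minus strand: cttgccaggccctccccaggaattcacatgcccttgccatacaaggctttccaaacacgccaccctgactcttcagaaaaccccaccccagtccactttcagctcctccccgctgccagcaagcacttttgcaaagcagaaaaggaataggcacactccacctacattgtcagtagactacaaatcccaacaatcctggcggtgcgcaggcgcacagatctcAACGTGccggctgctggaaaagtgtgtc
Dbp, chr7:45704997-45705246, plus strand: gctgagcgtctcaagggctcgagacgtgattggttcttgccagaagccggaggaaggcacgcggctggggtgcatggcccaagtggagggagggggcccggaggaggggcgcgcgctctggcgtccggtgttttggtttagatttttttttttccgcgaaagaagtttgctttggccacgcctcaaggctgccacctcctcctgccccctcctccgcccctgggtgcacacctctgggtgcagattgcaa

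The search covered both strands of 32851 windows of 300 bases, from 250 before to 50 after a start, and the matches in the members did not overlap each other. CACGTG was in 7.15% of all windows. Among the members it began at base -166 from the first of 2 starts of Per1, the one printed, at -60 in Cry1, and at -127 and -138 from the starts of Tef. CACGTT, in 4.68% of windows, began at -166 in Cry2, -79 in Cry1 and -28 in Nr1d1. The D-box, in 1.06%, occurred at -205 and -158 in Per3 and in no other member's window. The core of the element bound by REV-ERB and ROR proteins (TAGGTCA or TGGGTCA, in 6.45%) was found 30 bases after a start of Arntl, and the cyclic AMP response element (TGACGTCA, in 1.79%) in none of the members' windows. The windows of Dbp and Nr1d2 and that of the second Per1 start held none of these letters. A match is a string of letters and not a measured binding site.

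Values are FPKM (fragments per kilobase of exon, scaled by the authors to each library's mapped fragments), divided by a scale factor for each library, and are called scaled FPKM. Because FPKM are per length, levels of different genes can be set side by side as far as length goes. The members also differ in GC content, from 45.4% for Nr1d2 to 58.8% for Per1, and the levels given here were not adjusted for it. Depth was not in the table. An estimate from the steps between low values gave 12900000 to 22300000 fragments per library. NP markers (keratins, T, Car3 and others) summed to 25619 to 32854 scaled FPKM in NP and 2493 to 15089 in AF. The highest AF value was that of vehicle library 9. Most of the sum was Car3, at 18578 to 24178 in NP and 1513 to 10912 in AF. Of the defining genes, T lay at 1193 to 2328 in NP and 113 to 624 in AF, again highest in AF at library 9. Shh (0.37 to 9.09 in NP, 0.089 to 3.04 in AF) and Foxa2 (2.15 to 4.10 and 0.93 to 3.55) overlapped between the tissues. Noto was too low to be tested. The 8 AF markers summed to 785 to 1552 in NP and 1251 to 3119 in AF, with overlap. Within that list the tendon gene Tnmd lay at 0 to 2.97 in NP and 20.8 to 94.2 in AF, but the matrix gene Fmod ran the other way, at 718 to 1509 in NP and 326 to 1010 in AF. Markers of other tissues were found mainly in AF: 8 skeletal muscle genes summed to 891 to 9335 in AF and 11.7 to 1362 in NP, and 7 neutrophil genes to 5732 to 30885 in AF and 179 to 2890 in NP. Red cell, macrophage, bone, fat, endothelium and nerve marker sums did not overlap between the tissues and were higher in AF, and no marker list had a gene at 0 in every library. In such bulk samples, fewer cells of a type and less RNA per cell cannot be told apart.

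Nr1d1 had the highest mean level in each of the 4 groups and Tef the next, and Per2 or Cry1 had the lowest. Nr1d1 exceeded Tef in 4 of 5 NP vehicle libraries and in all 5 of each other group. In the middle of the order, neighbours often changed places: in NP vehicle, Per1 was above Cry2 in 3 of 5 libraries and Cry2 above Nr1d2 in 3 of 5, and in AF MDL-800, Dbp was above Cry2 in 2 of 5. Arntl lay seventh in every group, at a mean of 13.0 to 15.3 scaled FPKM.

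**Figure D1:**
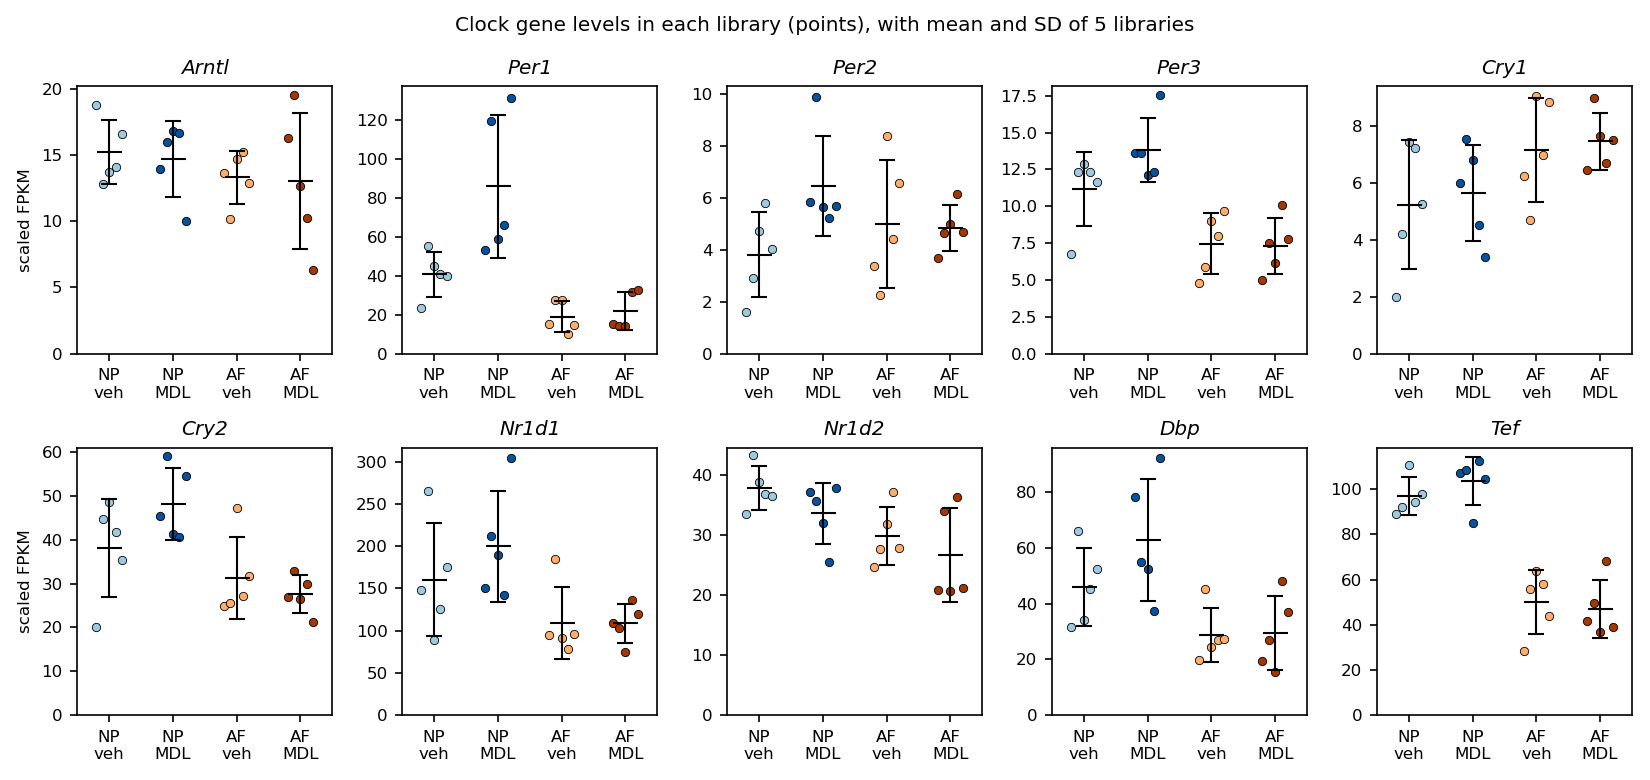
Scaled FPKM of the 10 clock genes (vertical axes, each from 0) in every library, by group, with the mean and SD of 5 libraries. Tef separates NP from AF libraries in both treatment arms, while Arntl spans a similar range in the 4 groups and Per1 is highest in NP MDL-800 libraries 18 and 22.

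Values below are in the order of libraries 1, 2, 3, 5 and 6 for NP vehicle, 15, 18, 19, 20 and 22 for NP MDL-800, 8, 9, 10, 12 and 13 for AF vehicle, and 25, 27, 28, 29 and 30 for AF MDL-800. Tests were limma's moderated tests on log2(scaled FPKM + 1), two-sided, with Benjamini-Hochberg adjustment over the 16383 genes. Differences are on that log2 scale, where the added 1 shrinks differences of genes at low levels. A gene is called where the adjusted p is under 0.05. No label states how many animals stand behind a group, so p-values measure only the spread between these libraries.

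Arntl, the positive arm, stood at 18.9, 12.9, 13.7, 14.2 and 16.6 scaled FPKM in NP vehicle and at 14.0, 16.0, 16.8, 16.7 and 10.0 in NP MDL-800. In AF its levels were 13.7, 10.2, 14.7, 15.2 and 12.9 with vehicle and 16.3, 19.6, 12.7, 10.3 and 6.34 with MDL-800. All 4 groups overlapped. The lowest value of the 20 was that of AF MDL-800 library 30, and the lowest NP value was that of NP MDL-800 library 22. The MDL-800 minus vehicle difference in Arntl was -0.059 in NP (95% interval -0.39 to 0.27) and -0.11 in AF (-0.66 to 0.45), and NP exceeded AF by 0.18 under vehicle (-0.12 to 0.48).

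Per1, a period repressor that also responds quickly to outside stimuli, showed the largest treatment difference of the members. Its NP levels were 23.2, 55.2, 45.0, 41.0 and 39.96 scaled FPKM with vehicle and 53.3, 119.6, 59.1, 65.9 and 131 with MDL-800. These groups overlapped only because vehicle library 2 exceeded MDL-800 library 15. The means were 40.9 and 85.9, a log2 difference of 1.00 (SE 0.29, 95% interval 0.35 to 1.66). It did not pass limma's threshold over all genes (unadjusted p = 0.00617, adjusted p = 0.153). Per1 levels in AF were 15.2, 27.3, 27.4, 9.86 and 14.8 with vehicle and 15.2, 14.4, 14.2, 31.8 and 32.8 with MDL-800, which overlapped throughout, and the AF difference was 0.18 (-0.57 to 0.93). Every NP MDL-800 library lay above every AF library.

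Per2, the period repressor with the lowest levels, gave 1.59, 2.90, 4.71, 5.81 and 4.03 scaled FPKM in NP vehicle and 5.85, 9.89, 5.66, 5.22 and 5.68 in NP MDL-800. The groups overlapped through vehicle library 5, and the MDL-800 mean rested in part on library 18. The difference in NP was 0.68 (SE 0.26, interval 0.11 to 1.25; limma unadjusted p = 0.024, adjusted p = 0.263). In AF, Per2 spread from 2.27 to 8.38 with vehicle and from 3.68 to 6.14 with MDL-800, a difference of 0.044 (-0.54 to 0.63).

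Per3, the third period gene, lay at 6.77, 12.3, 12.8, 12.3 and 11.6 scaled FPKM in NP vehicle and at 13.6, 13.6, 12.1, 12.3 and 17.5 in NP MDL-800. Library 1 was far below the other vehicle libraries and library 22 far above the other MDL-800 libraries. Its AF levels were 4.80, 5.85, 8.98, 7.99 and 9.69 with vehicle and 4.97, 7.52, 6.12, 10.1 and 7.79 with MDL-800. All NP MDL-800 libraries exceeded all AF libraries, and among NP vehicle libraries only library 1 fell within the AF range.

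The cryptochromes, partners of the period proteins in repression, differed in their tissue means, Cry2 being higher in NP and Cry1 in AF. Of these differences only that of Cry2 under MDL-800 was called. The Cry2 difference under vehicle was 0.26 (95% interval -0.28 to 0.80, limma adjusted p = 0.396). Cry2 lay at 20.1, 44.7, 48.5, 41.8 and 35.3 scaled FPKM in NP vehicle and 45.3, 59.1, 41.4, 40.7 and 54.6 in NP MDL-800. With vehicle its AF levels were 24.9, 25.5, 47.3, 27.0 and 31.6, and with MDL-800 they were 27.0, 33.0, 26.6, 29.8 and 21.3. Under MDL-800 the tissues did not overlap for Cry2, while under vehicle AF library 10 was above 4 of the 5 NP libraries and NP library 1 was below all AF libraries. Cry1 ranged over 1.98 to 7.45 in NP vehicle, 3.39 to 7.54 in NP MDL-800, 4.69 to 9.05 in AF vehicle and 6.44 to 9.00 in AF MDL-800. Its means were lower in NP than in AF in both arms, by log2 differences of -0.45 and -0.38 that did not pass limma's threshold (adjusted p = 0.198 and 0.0871).

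Nr1d1, which encodes the repressor of Arntl with the highest level here, stood at 148, 265, 88.7, 125 and 175 scaled FPKM in NP vehicle and 151, 212, 189, 142 and 305 in NP MDL-800. In AF it stood at 94.5, 185, 90.8, 78.5 and 96.4 with vehicle and 109, 103, 74.3, 136 and 119.8 with MDL-800. With vehicle the highest libraries were 2 in NP and 9 in AF, and with MDL-800 they were 22 in NP and 29 in AF, while all 4 groups overlapped except NP and AF under MDL-800. Nr1d2, its paralog, ranged over 33.6 to 43.4 in NP vehicle, 25.5 to 37.8 in NP MDL-800, 24.7 to 37.1 in AF vehicle and 20.7 to 36.4 in AF MDL-800, with overlap in every comparison. Nr1d1 shares 263 exon bases, 8.55% of its exon length, with Thra on the opposite strand. Thra levels were 83.2 to 112 in NP and 57.5 to 93.5 in AF, and Thra was called higher in NP in both arms (limma adjusted p = 0.0270 and 0.00108).

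Dbp encodes an activator whose RNA is known for a wide daily swing. Its levels stood at 31.6, 66.1, 34.3, 45.4 and 52.4 scaled FPKM in NP vehicle and 78.1, 54.8, 52.3, 37.2 and 92.2 in NP MDL-800. AF levels of Dbp were 19.6, 45.2, 24.5, 26.9 and 27.1 with vehicle, and 19.2, 27.0, 15.4, 48.2 and 37.03 with MDL-800. AF vehicle library 9 and AF MDL-800 libraries 29 and 30 reached the NP range, and the remaining AF libraries lay below every NP library. Dbp shares 539 exon bases, 18.0% of its exon length, with Sphk2 on the opposite strand, a gene at 3.72 to 16.8 scaled FPKM in NP and 3.70 to 11.6 in AF. The libraries were made with a stranded kit, but the strand setting of the counting is not given in the sources used here, so reads of Dbp and Sphk2, or of Nr1d1 and Thra, cannot be told apart if strand was not used.

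Tef, the other activator of this class, separated the tissues. Its levels were 89.2, 92.3, 111, 94.4 and 98.0 scaled FPKM in NP vehicle and 107, 108, 85.1, 113 and 104 in NP MDL-800. AF levels were 28.6, 55.7, 63.9, 58.3 and 44.1 with vehicle and 41.7, 49.7, 36.9, 68.4 and 38.9 with MDL-800. The lowest NP library lay above the highest AF library. Tef, Arntl and Cry2 each overlap an antisense or noncoding gene on the other strand (Gm17597, Gm45355 and D930015M05Rik), all too low to be tested.

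The first comparison asked whether MDL-800 shifted the clock genes within NP. None of the 10 members was called by limma, where 0.25% of all tested genes were called (0.0183% as lower). Per1 and Per2 were the 2 members with an unadjusted p under 0.05, against 14.1% of all genes. The differences of 8 members were above 0, as were those of 42.6% of all genes, and the median was 0.33 beside -0.033 over all genes. The groups overlapped for all 10 members, and did not for 4.5% of all genes. The count of 41 genes called over the whole table was itself unsteady: it was 189 without vehicle library 6 and only 2 when either vehicle library 3 or MDL-800 library 22 was dropped, and no member was called in any of the 10 omissions. Of 24 tested genes of the wider clock pathway 0 were called and Csnk2a1, a kinase subunit, was the 1 with an unadjusted p under 0.05 (log2 difference -0.16, limma adjusted p = 0.331). Rorb, the remaining gene of that list of 25, was too low to be tested, at 0.26 scaled FPKM or less in every library.

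Other values also differed between the NP groups. The slope of a library's expression on gene GC content ran from -0.31 to -0.0062 (log2 per 10 percentage points) in NP vehicle and from 0.029 to 0.10 in NP MDL-800, without overlap. The lowest slopes were those of vehicle libraries 1 and 2. Without those 2 libraries the Per1 difference was 0.92 and the Per2 difference 0.33, and with the slope as a covariate they were 0.77 and 0.088. All 9 immediate early genes, which Per1 resembles in responding quickly to stimuli, had a difference above 0 in NP (median 1.18). In AF all 9 were above 0 too (median 0.62), where Per1 differed by 0.18 and Per2 by 0.044. Their summed level ranged from 100.4 to 828 in NP vehicle and from 449 to 994 in NP MDL-800. Among these, Junb had the largest difference, 2.72 (limma adjusted p = 0.0519), with levels of 1.54 to 13.6 in vehicle and 43.0 to 59.2 in MDL-800. None of the 9 was called. Sphk2, which overlaps Dbp, also did not overlap between the NP groups (difference 0.86, adjusted p = 0.111). Within the groups, the immediate early sum did not follow Per1 throughout. In NP MDL-800, Per1 was highest in library 22 (131), where the sum was lowest (449). Library 15 had the lowest Per1 there (53.3) and the highest sum (994). In NP vehicle, library 1 was lowest for both (23.2 and 100.4), and library 2, highest for Per1 (55.2), had a sum of 193. Of 8 glucocorticoid-responsive genes, 7 had a difference above 0 in NP (median 0.26) and 4 in AF (median 0.014), and none was called. The part of GC slope and of these 2 gene lists in the Per1 and Per2 differences was not tested.

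In AF the same comparison gave 0 of 10 members called by limma, and 0.0% of all genes. Unadjusted, 270 genes (1.65%) and no member had a p under 0.05. Of the members, 4 had a difference above 0, beside 52.6% of all genes, and the median of the 10 was -0.024 beside 0.0085 over all genes. The widest interval was that of Per1 and the largest difference in size that of Nr1d2, -0.19 (-0.61 to 0.23). Within the pathway list, 0 of 24 were called, 12 above 0 and 12 below. With this spread, a log2 difference of 0.5 in Per1 or Dbp would lie inside the intervals and was not detectable.

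Whether the treatment difference itself differed between NP and AF was tested in a fit of all 4 groups. No member was called, as was no gene of the table (0.0%; 611 genes, or 3.73%, and no member had an unadjusted p under 0.05). The largest was Per1, 0.82 (95% interval -0.17 to 1.81; unadjusted p = 0.0987), followed by Per2, 0.63 (-0.17 to 1.44) and Cry2, 0.53 (-0.09 to 1.15). With its sign, the MDL-800 minus vehicle difference was higher in NP than in AF for all 10 members, beside 45.8% of all genes. For Arntl (-0.059 in NP, -0.11 in AF) and Nr1d2 (-0.17, -0.19) both were negative and the NP one was smaller in size. With libraries scaled to an equal sum the order was reversed for Cry1, Nr1d2 and Arntl. The same held for Nr1d2 with no further scaling and for Cry1 without NP vehicle libraries 1 and 2. It also held for these 3 genes in some fits that left out 1 library. This contrast uses the same libraries as the 2 treatment comparisons.

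**Figure D2:**
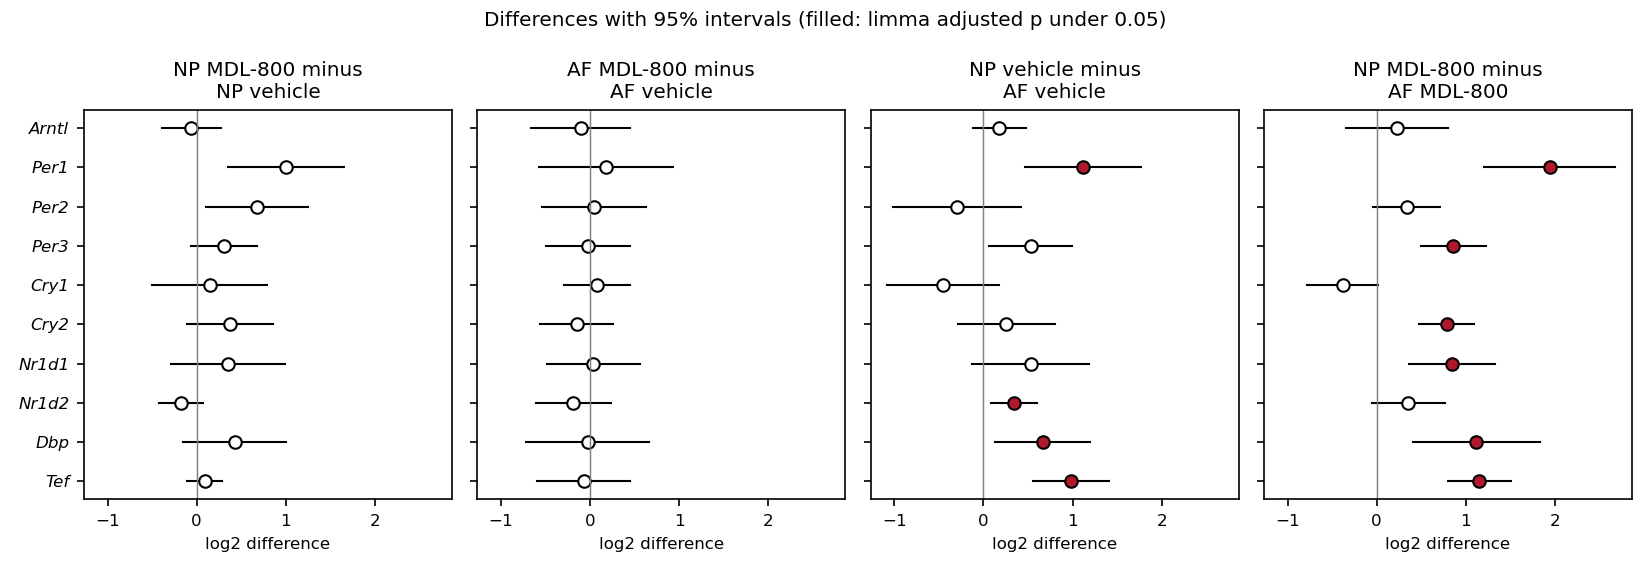
Log2 differences of the 10 members in the 4 comparisons (points, horizontal axis) with 95% intervals (lines); filled points have a limma adjusted p under 0.05. No point is filled in either treatment comparison, 4 are filled for NP against AF under vehicle and 6 under MDL-800.

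The next comparison set NP against AF. Under vehicle, 4 of 10 members were called higher in NP than in AF by limma, where 21.8% of all tested genes were called higher, and 0 were called lower, beside 33.9%. Unadjusted, 5 members had a p under 0.05, beside 60.3% of all genes. The 4 were Per1 (log2 difference 1.12, SE 0.30; adjusted p = 0.00796), Tef (0.99, SE 0.19; adjusted p = 0.00132), Dbp (0.67, SE 0.24; adjusted p = 0.0363) and Nr1d2 (0.34, SE 0.12; adjusted p = 0.0292). Tef was the 1 member whose groups did not overlap, against 41.0% of all genes. Mean levels were 40.9 and 18.9 scaled FPKM for Per1, 97.0 and 50.1 for Tef, and 45.9 and 28.7 for Dbp, in NP and AF. Per3 (0.53) and Nr1d1 (0.53) did not pass (adjusted p = 0.0523 and 0.154). The differences of 8 members were above 0, beside 45.0% of all genes, and their median was 0.44 beside -0.083 over all genes.

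Not all 4 calls were equally firm. Per1 and Tef were called in each of 10 fits that left out 1 library. Dbp was lost in 7 of them (adjusted p up to 0.0873) and Nr1d2 in 5 (up to 0.0734), and 2 members were called when NP vehicle library 2 was dropped, as when AF vehicle library 8 was. The skeletal muscle, neutrophil and other marker sums given above also differed between the tissues, and their part in these 4 calls was not tested.

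Under MDL-800, 6 members were called higher in NP by limma, where 25.6% of all genes were called higher, and again 0 lower, beside 37.2%. In either direction, 60% of the members and 62.8% of all genes were called, which are similar shares. The differences of 9 members were above 0, beside 45.1% of all genes, and their median was 0.82 beside -0.084. Per1 was 1.94 higher (SE 0.33; adjusted p = 0.000468; means 85.9 and 21.7 scaled FPKM) and Tef 1.149 higher (SE 0.16; adjusted p = 0.000114; 103.6 and 47.1). Dbp (1.12, adjusted p = 0.0111), Per3 (0.86, adjusted p = 0.000979), Nr1d1 (0.85, adjusted p = 0.00632) and Cry2 (0.79, adjusted p = 0.00058) followed. The groups did not overlap for 5 of the 6, all but Dbp, as for 49.1% of all genes. Between 6 and 7 members were called whichever library was left out. Of the 9 immediate early genes 4 were also called higher in NP here, and 0 under vehicle; their part in the Per1 difference was not tested. This comparison shares no library with that under vehicle, but whether the tissue difference depends on treatment is the contrast reported above, in which no member was called.

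Other genes of the clock pathway divided between the tissues. Under vehicle 9 of 24 tested genes were called, 6 higher in NP and 3 lower, beside 55.7% of all genes called in either direction. Those higher included Hlf (1.30), the remaining PAR bZIP factor, Bhlhe40 (1.11) and Bhlhe41 (0.95), repressors at E-boxes, and Fbxw11 (0.46), a ubiquitin ligase part that marks period proteins for decay. Lower were Timeless (-1.76), whose product is best known at DNA replication forks, Csnk1e (-0.55), a kinase of period proteins, and Wee1, a cell cycle kinase, which ranked below the 8 smallest p-values (limma adjusted p from 5.94e-05 for Timeless to 0.0197 for Wee1). Clock, the partner of BMAL1, differed by 0.25 (adjusted p = 0.162).

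Under MDL-800, 12 of 24 were called, 7 higher and 5 lower, beside 62.8% of all genes in either direction. Ciart, a repressor of the BMAL1 and CLOCK pair, had the largest difference, 2.28 (limma adjusted p = 7.86e-05), with 18.9 to 62.5 scaled FPKM in NP and 4.02 to 7.94 in AF. Under vehicle Ciart spread over 4.16 to 47.5 in NP and 1.96 to 15.6 in AF and was not called (1.19, adjusted p = 0.116). Hlf (1.63), Bhlhe40 (1.68), Bhlhe41 (1.02) and Fbxw11 (0.51) were again higher. Timeless (-1.92) and Nampt (-0.58), the rate-limiting enzyme of NAD salvage and a clock target, were lower, as were Csnk2b, Csnk1e and Wee1.

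Within the NP groups, several clock genes varied far more between libraries than most genes did. In NP the pooled SD of log2 values was 0.53 for Per1, 0.51 for Cry1 and Nr1d1, and 0.47 for Dbp, against a median of 0.21 over all genes, which put them at the 89.1 to 91.5 percentiles. Tef (0.14) and Nr1d2 (0.19) were below the median gene. In AF, Per1 (0.60) and Dbp (0.55) had the largest SD of the members, beside a median of 0.28, at the 88.1 and 85.1 percentiles. The remaining members lay between the 46.9 percentile (Cry1) and the 77.7 percentile (Per2) there, with Nr1d1 at 72.2.

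Relations between members across libraries were also computed. They were taken within each tissue on deviations from group means, over 10 libraries, for all 90 pairs of members, with exact permutation of libraries within groups and adjustment over the 90. None passed an adjusted p of 0.05 (smallest 0.0625), and 20 had an unadjusted exact p under 0.05. Arntl and Per3 in NP gave r = -0.82 (exact p = 0.000972, adjusted 0.0625) and rho = -0.93 (exact p = 0.00375, adjusted 0.125), and r was -0.83 without the 2 libraries farthest from the Arntl median. For Arntl and Dbp r was -0.73 in NP (exact p = 0.0282, adjusted 0.178; rho -0.73, exact p = 0.0248, adjusted 0.171) and -0.54 without the 2 farthest libraries. In AF, r was -0.56 for Arntl and Dbp (exact p = 0.177, adjusted 0.375; rho -0.55, exact p = 0.181, adjusted 0.397) and -0.76 without them. For Arntl and Per1, r was -0.68 in NP (exact p = 0.0381; rho -0.72, exact p = 0.0265) and -0.70 in AF (exact p = 0.0292; rho -0.72, exact p = 0.0545), with adjusted values of 0.171 to 0.259, and it fell to -0.35 in NP without the 2 farthest libraries. For Arntl and Nr1d1, r was -0.39 in NP (exact p = 0.269, adjusted 0.457; rho -0.26, exact p = 0.492, adjusted 0.712) and -0.12 there without the 2 farthest libraries. In AF it was -0.46 (exact p = 0.129, adjusted 0.340; rho -0.50, exact p = 0.160, adjusted 0.392) and -0.69 without them. With no further scaling, the NP value was -0.45, and 0.65 without the 2 farthest libraries. For Arntl and Per2, r was -0.21 in NP and 0.093 in AF (rho -0.37 and -0.042; exact p from 0.326 to 0.909, adjusted 0.575 to 0.941), and for Arntl and Per3 in AF r was -0.18 (exact p = 0.655; rho -0.19, exact p = 0.625; adjusted 0.796 and 0.816). Other pairs differed in sign between the tissues. With Cry2, r of Arntl was -0.66 in NP (exact p = 0.0203, adjusted 0.174) and 0.52 in AF (exact p = 0.0614, adjusted 0.211). With Nr1d2, it was -0.70 in NP (exact p = 0.0597, adjusted 0.211) and 0.30 in AF (exact p = 0.534, adjusted 0.718). With Cry1 and Tef, it was -0.017 and -0.26 in NP and 0.33 and 0.057 in AF (adjusted 0.425 to 0.979).

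**Figure D3:**
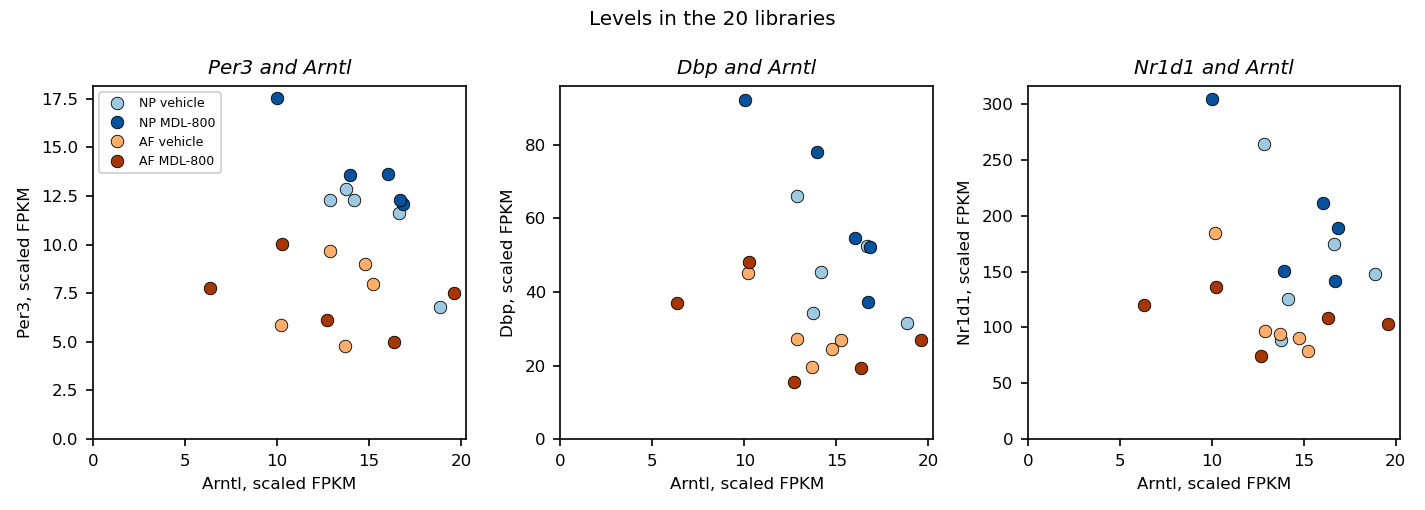
Levels of Per3, Dbp and Nr1d1 (vertical axes) against Arntl (horizontal axis), in scaled FPKM, for the 20 libraries, coloured by group. The NP MDL-800 library with the lowest Arntl of its group, 10.0, has the highest Per3 (17.5), Dbp (92.2) and Nr1d1 (305) of all libraries.

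The ratio of Dbp to Arntl put both genes on 1 scale. It was 1.68, 5.14, 2.49, 3.20 and 3.15 in NP vehicle and 5.60, 3.42, 3.10, 2.23 and 9.21 in NP MDL-800. In AF it was 1.43, 4.44, 1.66, 1.77 and 2.11 with vehicle and 1.18, 1.38, 1.21, 4.70 and 5.84 with MDL-800. Each group thus held libraries at low and at high ratios, and the groups overlapped.

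The genes whose deviations were most like those of 2 members over the 20 libraries were ranked over all tested genes, as a description. Nearest to Arntl were Anxa8 (r = 0.90), Tspan2 (0.85), Ntn4 (0.85), Baiap2l1 (0.85) and Capn2 (0.85), and the most opposite were Cat (-0.81), Ubald1 (-0.79) and Hist4h4 (-0.78). For Anxa8 r was 0.69 in NP and 0.97 in AF, and for Capn2 0.45 and 0.96, so the AF libraries carried much of the likeness. Nearest to Dbp were 9130024F11Rik (0.83), 4930412M03Rik (0.76), Tatdn1 (0.74), Rbpms (0.73) and the member Nr1d1 (0.73), and the most opposite were Slc7a1 (-0.79), Uhmk1 (-0.77) and Lig3 (-0.76). Each library's own depth and GC slope bear on all of its genes, and their part in these likenesses was not tested.

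A last relation was examined after the values had been seen. The column headers of the table carry, beside the library number, another number that recurs in both tissues for 8 pairs of libraries, 5 with vehicle (8, 9, 10, 12 and 13) and 3 with MDL-800 (36, 37 and 39). The headers do not say what it stands for. For Dbp, the deviations of NP and AF libraries with the same number, from the mean of the paired libraries of their group, had the same sign in 5 of 8 pairs. NP against AF levels were 31.6 and 19.6 scaled FPKM at number 8, 66.1 and 45.2 at number 9, 34.3 and 24.5 at number 10, 45.4 and 26.9 at number 12, and 52.4 and 27.1 at number 13. With MDL-800 they were 52.3 and 27.0 at number 36, 37.2 and 15.4 at number 37, and 92.2 and 37.03 at number 39. Among the pairs of each arm, the order of the NP values was also the order of the AF values.

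Over the 8 pairs, the deviations of Dbp gave r = 0.93 (exact permutation p = 0.00139, the smallest these 720 arrangements allow; adjusted 0.0139 over the 10 members) and rho = 0.90 (exact p = 0.00694, adjusted 0.0694), and r was 0.83 without the 2 farthest pairs. It stayed between 0.90 and 0.96 when 1 number was left out. Nr1d1 gave r = 0.84 (exact p = 0.0181, adjusted 0.0903; rho 0.83, exact p = 0.0292, adjusted 0.125), which was 0.73 without number 9. The other 8 members had r of 0.12 (Tef) to 0.75 (Arntl), none past an adjusted p of 0.05. The same r was 0.13 in the median gene of the table, and that of Dbp lay at the 99.8th percentile. Genes of the pathway list ran from -0.75 for Csnk1d, at the 1.5th percentile, to 0.92 for Ciart. Ciart and Hlf (0.91) lay at the 99.7th and 99.6th percentile, while Clock (-0.039) and Nampt (-0.13) were among those below the median gene. Number 9 is also the pair whose AF library had the highest sum of NP markers, 15089 scaled FPKM, and without it r for Dbp was 0.92. Number 8 joins NP vehicle library 1 and AF vehicle library 8, which were the lowest of their groups for Per3, Cry2, Nr1d2, Dbp and Tef.

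**Figure D4:**
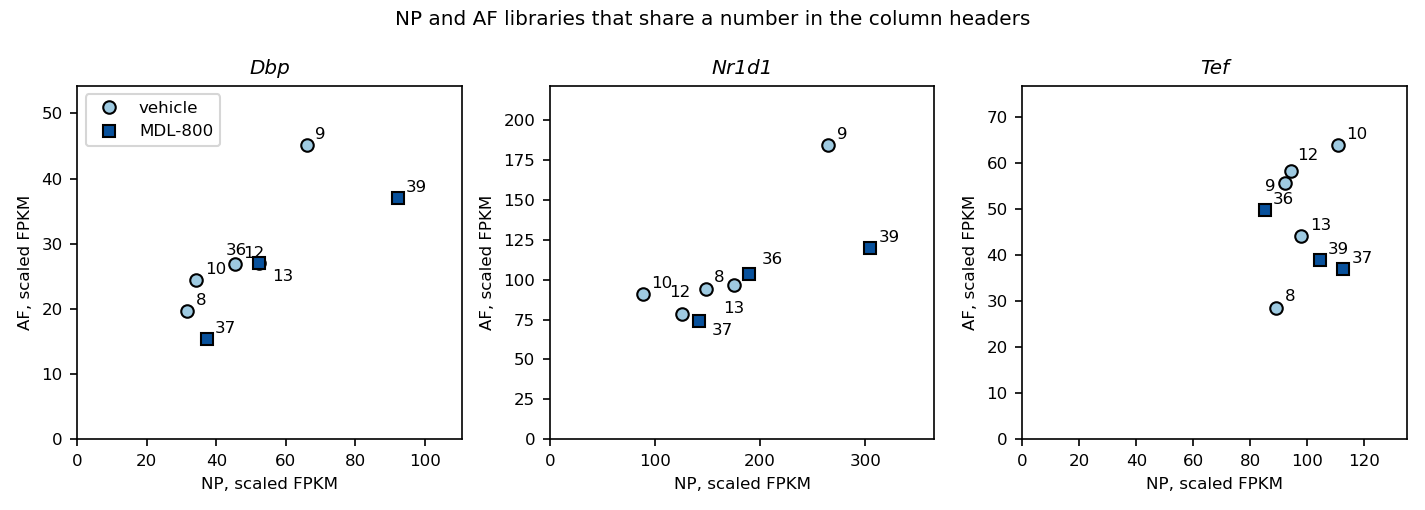
Levels of Dbp, Nr1d1 and Tef in NP (horizontal axes) and AF (vertical axes), in scaled FPKM, for the 8 pairs of libraries that share a number in the column headers, which is printed beside each point. Dbp and Nr1d1 are highest in both tissues at number 9 among the vehicle pairs and at number 39 among the MDL-800 pairs, while the r of Tef is 0.12.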

How the data were processed

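RNA was measured in 20 libraries, 5 in each of 4 groups, and groups were taken from the sample titles. Expression values came as FPKM for 51789 genes, which the authors deposited in 1 table. Per the submitters' processing notes, the build was mm10 and STAR 2.7.11b was used; the program that counted reads, its annotation and its strand setting are not given in the sources used here. Per the labels' protocols, a stranded kit that removes ribosomal RNA was used.

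The deposited FPKM were divided by median-ratio factors (0.933 to 1.06), and a gene was kept where 5 libraries or more had at least 1 FPKM (16383). The tests used log2(scaled FPKM + 1) in limma 3.58.1 (R 4.3.3, lmFit and eBayes with a trend) on the 2 groups compared, two-sided, with Benjamini-Hochberg adjustment; the difference between treatment effects used all 4 groups. Relations used exact permutations within groups (Python 3.11.15, scipy 1.17.1). The test was tried on simulated data: of 200 genes among 16383 given a log2 difference of 1, it found 73% for NP MDL-800 against NP vehicle, 61.5% for the same comparison in AF, 52.5% for the difference between these effects, 64% for NP against AF under vehicle and 71% under MDL-800. In the same order, the genes found numbered 146, 123, 105, 128 and 142. Beside them, 9, 8, 18, 15 and 13 unchanged genes were called. The measured NP against AF comparisons called 9127 genes under vehicle and 10290 under MDL-800. Recovery with that many genes changed was not tested. Count models do not apply to FPKM. Depth was estimated from the steps between low values of 6647 genes, 75.9% to 82.0% of which lay on steps, with gene lengths shortened by an amount chosen after seeing which gave steps; its error is unknown.

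GENCODE M21 (GRCm38, the same build as mm10) gave GC content and overlaps between genes. Promoter sequences came from RefSeq. The members, gene lists and tests were chosen with earlier results of these data known. All members were named, as were up to 8 called pathway genes with the smallest p, pathway genes not tested, genes overlapping a member, and the 5 most and 3 least alike genes for Arntl and Dbp. Junb, Csnk2a1, Csnk1d, Clock, Wee1, T, Car3, Shh, Foxa2, Noto, Tnmd, Fmod and further called pathway genes were named after their values were seen. The alternatives were another pseudocount (0.1), no filter, 3 other scalings, removal of the GC trend, 1 fit of all groups, and omission of each library. Some called pathway genes are counted but not reported here by name. Added after seeing the data were a block on the header number, the GC slope as a covariate, and omission of the 2 NP vehicle libraries with the lowest slope.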

Additional observations from a re-analysis of the deposited data

Results flagged for a closer look

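In 4 of the 40 combinations of a member and a group, a single library stood far from the other 4 of its group; chance alone sets such a library apart in about 1 in 20 groups. Per2 reached 9.89 scaled FPKM in NP MDL-800 library 18. Per3 was 6.77 in NP vehicle library 1, the lowest of its group, and 17.5 in NP MDL-800 library 22, the highest of its group. Nr1d1 was 185 in AF vehicle library 9, the AF library with the highest sum of NP markers (15089 scaled FPKM) and the partner in header number of NP vehicle library 2, which had the highest Nr1d1 of its own group (265). The part of the NP markers in that Nr1d1 level was not tested.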

How the results depend on the processing

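No member was called in either treatment comparison, or in their difference, under any alternative run or with any library left out. Per1 in NP ranged from 0.74 (GC trend removed) to 1.02 over the other settings, with adjusted p of 0.136 to 0.659, and from 0.82 to 1.149 with 1 library left out. The count of all genes called for MDL-800 in NP, 41, became 7 without the filter, 18 with no further scaling, 21 with libraries scaled to an equal sum, 70 with quantile normalization, 26 with the GC trend removed, 4 with all groups in 1 fit, 1 with the GC slope as a covariate and 11 without NP vehicle libraries 1 and 2. Leaving out NP vehicle library 1, 2, 3, 5 or 6 gave 7, 5, 2, 20 or 189, and leaving out MDL-800 library 15, 18, 19, 20 or 22 gave 25, 24, 17, 4 or 2. In AF, and for the difference between tissues, the count of all genes went from 0 to at most 1 when a library was left out.

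Under vehicle, Per1 and Tef were called higher in NP in every alternative. Members called, 4, became 2 with no further scaling, where Dbp (adjusted p = 0.0676) and Nr1d2 (0.103) were lost, and 2 to 5 with 1 library left out (5 without NP vehicle library 1). Dbp was also lost without the filter (0.0800), in 1 fit of all groups (0.0650) and without NP vehicle libraries 1 and 2 (0.0666). Per3 passed with values scaled to an equal sum (0.0355), with quantile normalization (0.00520), with the GC trend removed (0.0343), in 1 fit of all groups (0.0251) and without libraries 1 and 2 (0.0262), and Nr1d1 passed without AF vehicle library 9 (0.0382). Arntl passed with quantile normalization (0.42, 0.0190), and Nr1d2 was lost in 1 fit of all groups (0.0747) and without libraries 1 and 2 (0.0753). Under MDL-800 the 6 calls were kept in each alternative but the block below; Cry1 passed as lower with no further scaling (0.0484), and Per2 (0.00150) and Nr1d2 (0.0387) as higher with quantile normalization. The cause of these changes was not tested.

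No difference that changed sign was called, in either direction. In NP, Arntl became 0.036 with the GC trend removed, Cry1 -0.46 and Tef -0.024 with the GC slope as a covariate, and Cry1 -0.23 without NP vehicle libraries 1 and 2. In AF, Per3 became 0.040 and Dbp 0.042 when scaled to an equal sum. Between tissues under vehicle, Per2 became 0.15 with quantile normalization and 0.051 without libraries 1 and 2. For the difference of treatment effects, Nr1d2 became -0.000585 with no further scaling, Nr1d2 -0.13, Cry1 -0.050 and Arntl -0.10 at an equal sum, and Cry1 -0.31 without libraries 1 and 2. With 1 library left out, the NP treatment difference ranged from -0.094 to 0.29 for Cry1 and -0.11 to 0.064 for Arntl. In AF the ranges were -0.011 to 0.34 for Per1, -0.15 to 0.23 for Per2, -0.15 to 0.087 for Per3, -0.047 to 0.16 for Cry1, -0.22 to 0.0051 for Cry2, -0.063 to 0.24 for Nr1d1, -0.23 to 0.17 for Dbp, -0.25 to 0.029 for Tef and -0.27 to 0.11 for Arntl. The difference of effects ranged from -0.17 to 0.21 for Cry1, -0.064 to 0.14 for Nr1d2 and -0.17 to 0.21 for Arntl. The relation of Arntl with Cry1 in NP became 0.081 with no further scaling, and those of Arntl in AF with Nr1d2 and Tef became -0.29 and -0.28 without the 2 farthest libraries.

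The numbers in the sample titles differ between all groups and pair no libraries. The tissue comparisons were also fitted with the header number as a replicate block, although its meaning is not given. Over all tested genes, the deviations of the 8 pairs correlated at -0.18 to 0.29, and only at numbers 10 and 39 did each library of the pair correlate best with the other. With the replicate block, members called rose from 4 to 6 under vehicle, with Per3 (adjusted p = 0.0124) and Nr1d1 (0.0181) added. Under MDL-800 only 3 numbers (36, 37 and 39) pair libraries, and libraries without a partner do not bear on the blocked difference. That fit thus rests on 3 pairs, fewer libraries than the main fit. In it Cry1 was called lower in NP (-0.65, adjusted p = 0.0394), beside -0.38 in the main fit. Cry2 no longer passed (0.75, adjusted p = 0.0524), beside 0.79 in the main fit. Per2 or Cry1 had the lowest mean level of the members in each group, and the part of depth in their values was not tested.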
